A study of Mus musculus with 5 samples.

Results

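RNA of follicular regulatory T (Tfr) cells was assembled into loci in each library, and the loci described here are those that lay outside every annotated gene. A locus was counted where an assembled row with TPM (transcript abundance corrected for length and depth) of at least 1 overlapped no annotated gene on either strand, and where such rows, merged over the libraries, were seen in at least 2 of 5 libraries. This gave 814 loci among 1537 merged intervals outside genes, and among 13905 assembled loci of any kind that met the same level and number of libraries. The other 723 intervals, 47.0%, were seen in 1 library and were left out. The members were thus chosen by their TPM values, so how many loci a library held and how high they stood are given as a description, with no test.

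The cells were live CD4+Foxp3+CXCR5+PD-1+ICOS+ cells from mouse spleen, taken 21 days after imiquimod, which activates the innate RNA receptor TLR7. The 3 WT libraries came from Foxp3-GFP reporter mice, and the 2 Cebpa-KO libraries from Foxp3-Cre Cebpa-flox/flox mice, in which a Cre recombinase driven by Foxp3 deletes Cebpa in regulatory T cells. Every mouse received imiquimod and each library pools the sorted cells of several mice. The sources used here do not give the age of the mice. Aligned depth was 6.76 to 7.08 gigabases per library, and values below are TPM scaled to a common median ratio.

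Transcription outside annotated genes has several known forms. Polymerase can read past a polyadenylation site into the DNA beyond a gene, many promoters fire in both directions, active enhancers are transcribed into short unstable RNAs, and mobile elements and unannotated pseudogenes add transcripts of their own. The cDNA kit used here starts from polyadenylated RNA and the library does not keep strand, so an assembled block shows that RNA was read from a place but not from which strand. Readthrough gives RNA past the 3' end of a gene, and divergent transcription gives it in front of the start.

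The groups differed in more than Cebpa. Cebpa, the targeted gene of the factor C/EBP alpha, stood at 12.9, 17.7 and 12.8 in WT, against 0.317 and 0.550 in Cebpa-KO (log2 difference -3.42, SE 0.20, limma adjusted p = 0.00353). An exact two-sided permutation test of the 5 libraries gave p = 0.1, the smallest that 10 splits allow. Xist was at 0.0220 or less in WT, against 11.4 and 10.7 in Cebpa-KO, whereas the Y genes Ddx3y, Kdm5d and Eif2s3y were listed at 0 in both Cebpa-KO libraries. Cebpa, the Foxp3 allele and the sex of the mice therefore cannot be told apart. Of 9 markers of the sorted cells, 7 were lower in Cebpa-KO, Foxp3 among them (98.3 ± 13.4 SD, n = 3, against 6.16 ± 0.821, n = 2), and none was at 0. Summed over 5 globin and heme genes, erythroid RNA was 90.1, 60.7 and 708 in WT, against 2129 and 234 in Cebpa-KO, with 0 of 5 called, none of them at 0. The 5 plasma cell genes summed to 1336, 778 and 9598 in WT, against 4898 and 1837 in Cebpa-KO, with Ighg1 called higher. WT replicate 3 stood with the Cebpa-KO libraries in 4 stress and immediate early genes (Hspa1a, Hspa1b, Fos and Jun), which summed to 88.1, 118 and 2464 in WT, against 3422 and 3657 in Cebpa-KO. The part of these differences in the results below was not tested.

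The loci were short, weak and without strand. Each library held 541 to 773 rows that met the rule, which made up 0.489%, 0.454% and 0.534% of the assembled TPM in WT, against 0.540% and 0.606% in Cebpa-KO. Both Cebpa-KO libraries were above all 3 WT libraries in this share. A row of the rule had a median length of 545 to 646 bp, against 4028 to 4375 bp for all assembled rows of the same libraries. Between 94.3% and 97.1% of them had no strand, against 3.22% to 4.46% of all assembled rows, and 778 of the 814 loci had no strand in any library. Merged over libraries, a locus had a median length of 818 bp and reached from 201 to 12432 bp. The median row stood at 2.76 to 3.00 TPM. The lowest row taken was at 1.32 to 1.62 TPM per library, and only 2 rows outside genes fell below 1 TPM, at 0.895 and 0.837. A listed 0 at a locus says that no row was assembled there, not that RNA was absent.

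Most loci lay near genes. The median distance to the nearest annotated gene was 5263 bp. Within 5 kb of a gene there were 398 loci, 226 of them facing a 3' end and 172 facing a start. A further 355 loci were 5 to 50 kb away, and 61 had no gene within 50 kb. The nearest gene was itself above the filter on low values (TPM of at least 1 in at least 2 libraries) for 64.3% of the loci within 5 kb, for 41.4% of those 5 to 50 kb away and for 21.3% of those farther off. By GENCODE M21, which knew 737 of the 814 nearest gene IDs, 32.3% of the nearest genes were pseudogenes and 46.1% coded for protein, against 25.9% and 41.9% of all annotated genes it knew. Loci seldom sat side by side: 734 separate runs remained when loci up to 5 kb apart were joined, and 72 runs held 2 to 4 loci.

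The set of libraries that shared a locus was uneven. All 5 libraries held 162 loci, 121 were seen only in both Cebpa-KO libraries, and 145 only in WT libraries. WT replicate 3 together with both Cebpa-KO libraries held 65 loci that neither of the other WT libraries had. By comparison, WT replicate 1 with both Cebpa-KO libraries held 14 and WT replicate 2 with both held 15. These 65 loci faced a gene start within 5 kb in 20 cases, or 30.8%, against 21.1% of all 814 loci and 2 of the 50 loci seen in the 3 WT libraries only. These shares were not tested against each other. The 3 libraries that share the 65 loci are the 3 that share the high stress genes above. These 3 also stood above WT replicates 1 and 2 in the erythroid and plasma cell sums. They held more rows that met the rule as well (684, 720 and 773, against 578 and 541). The part of each of these differences in the pattern was not tested. A locus beside Klf6, an early response transcription factor, shows the pattern in a locus that all 5 libraries held (chosen after its values were seen). The locus (chr13:5910305-5911227, 253 bp in front of the Klf6 start) was at 3.90 and 5.11 in WT replicates 1 and 2, 30.7 in WT replicate 3, and 33.5 and 31.2 in Cebpa-KO. Klf6 itself stood at 40.6, 40.5 and 88.6 in WT, against 72.7 and 81.4 in Cebpa-KO, and the locus did not pass the test (log2 difference 1.76, SE 0.85, limma adjusted p = 0.201).

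**Figure D1:**
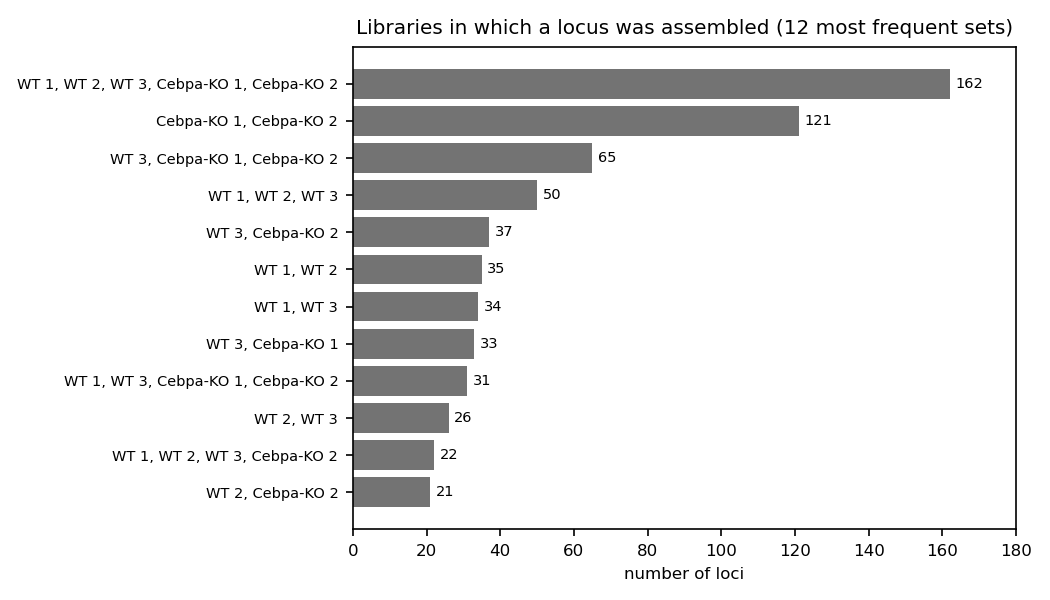
Number of loci (horizontal axis) for the 12 most frequent sets of libraries in which a locus was assembled (vertical axis). The set of WT replicate 3 with both Cebpa-KO libraries holds 65 loci, fewer than only all 5 libraries (162) and both Cebpa-KO libraries alone (121).

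The promoters of Rnf135, Klf6 and Gstp3, whose starts lie within 500 bp of a described locus, are shown, from RefSeq on GRCm38.p6. They are sequences next to loci and were picked by no set rule. Those of Sf3b1 and Trbv21, with starts also within 500 bp of a described locus, are not shown. The loci themselves are on mm39 and their own sequence was not used here. Each run covers 250 bases before to 50 bases after the gene start, with matches in capitals, on either strand, to the GC box GGGCGG, to the CCAAT box, to the TATA motif TATAA and to TTGCNNAA, the core that C/EBP factors bind.
Rnf135: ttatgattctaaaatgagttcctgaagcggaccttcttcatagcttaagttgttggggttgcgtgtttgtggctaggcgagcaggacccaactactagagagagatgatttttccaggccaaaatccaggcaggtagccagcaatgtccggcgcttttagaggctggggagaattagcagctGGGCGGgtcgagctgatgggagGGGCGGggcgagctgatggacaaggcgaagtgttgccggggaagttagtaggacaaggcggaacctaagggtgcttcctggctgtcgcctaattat
Klf6: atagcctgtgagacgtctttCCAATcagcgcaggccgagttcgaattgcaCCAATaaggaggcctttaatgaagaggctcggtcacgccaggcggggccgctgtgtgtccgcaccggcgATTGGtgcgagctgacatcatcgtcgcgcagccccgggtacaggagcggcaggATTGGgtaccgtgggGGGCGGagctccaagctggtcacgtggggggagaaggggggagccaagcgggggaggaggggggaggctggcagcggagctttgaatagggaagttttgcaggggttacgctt
Gstp3: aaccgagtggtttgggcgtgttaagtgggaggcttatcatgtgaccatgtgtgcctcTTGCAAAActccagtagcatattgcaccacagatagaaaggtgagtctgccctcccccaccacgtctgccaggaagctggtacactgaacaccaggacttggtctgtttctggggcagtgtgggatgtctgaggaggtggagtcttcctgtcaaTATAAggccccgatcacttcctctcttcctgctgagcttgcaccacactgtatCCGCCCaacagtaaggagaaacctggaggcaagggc
The Klf6 promoter has 23 CG dinucleotides, 4 CCAAT box matches and 1 GC box, the Rnf135 promoter 13 CG and 2 GC boxes, and the Gstp3 promoter 5 CG, 1 GC box, 1 TATA motif and 1 C/EBP core. The median of all 32851 promoters in the table is 7 CG. The GC box is found in 35.7% of them, the CCAAT box in 37.4%, the TATA motif in 24.9% and the C/EBP core in 10.8%, and each match is given as a description only. By the deposited rows, Rnf135, a ubiquitin ligase that activates the RNA sensor RIG-I, had a locus 348 bp in front of its start, and Gstp3, a glutathione transferase, one 469 bp in front.

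Of the 814 loci, 548 were assembled in at least 1 library of each group and could be compared. Cebpa-KO was higher in 19 and lower in 18 (limma, Benjamini-Hochberg adjusted p under 0.05 over 17068 annotated genes and loci), that is 3.47% and 3.28%, against 9.38% higher and 9.24% lower among annotated genes and 9.71% and 9.18% in the whole table. At an unadjusted p under 0.05, 100 of the 548 passed. In 368 of the 548 at least 1 library was listed at 0, and in 57 a row overlapping a gene entered the sum. The 152 loci seen in all 5 libraries, with no gene-overlapping row in their sum, have neither. Of these, 10 were higher and 13 lower, or 6.58% and 8.55%, and their median log2 difference was 0.05, against 0.27 over all 548 compared loci and 0.01 over annotated genes. The groups did not overlap in 36 loci that were higher in Cebpa-KO and 36 that were lower, 23.7% in each direction. Annotated genes gave 28.7% and 28.0%, and annotated genes with loci gave 28.6% and 27.3%. The shares with loci again count loci seen in 1 group only. The median coefficient of variation of the 152 loci between replicates was 20.7% in WT (3 libraries) and 11.8% in Cebpa-KO (2 libraries). For annotated genes of at least 1 TPM in all libraries it was 11.9% and 6.03%. Loci and genes were not matched for level or length.

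The counts fell when a Cebpa-KO library was left out, for loci and annotated genes alike. In such a fit the lone Cebpa-KO library is assumed to vary like WT. Without Cebpa-KO replicate 1, 1 of the 152 loci was higher and 2 lower, and without Cebpa-KO replicate 2 none was called, although 38 and 30 then had an unadjusted p under 0.05. Called annotated genes fell from 1524 higher and 1502 lower to 26 and 14 in all in the same fits. Without WT replicate 1 there were 5 higher and 6 lower, without WT replicate 2 there were 3 and 8, and without WT replicate 3 there were 17 and 13. All 23 called loci kept their direction in each of these 5 fits. That was fixed in advance, since the WT and Cebpa-KO values of these loci do not overlap.

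**Figure D2:**
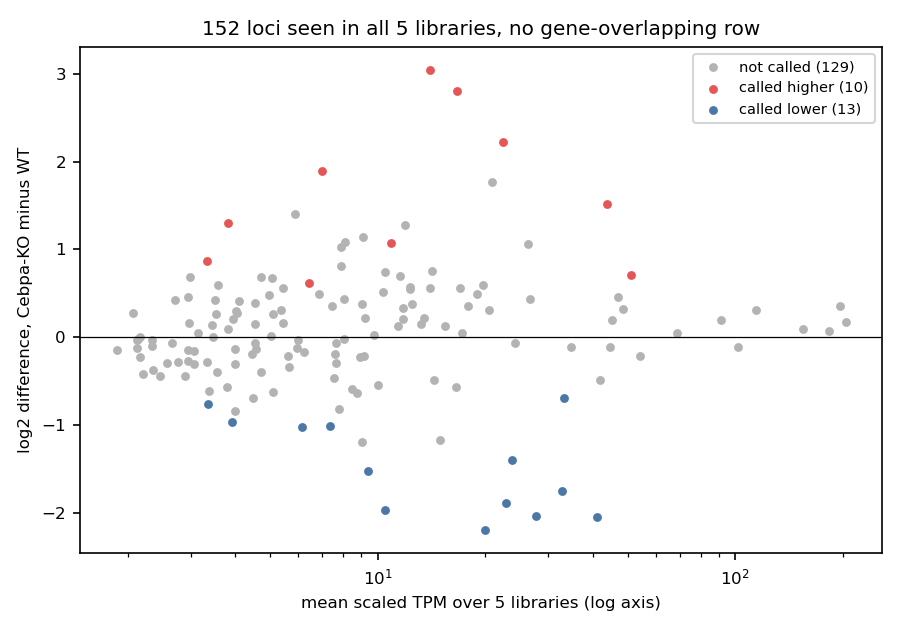
Log2 difference of Cebpa-KO minus WT (vertical axis) against the mean scaled TPM over 5 libraries (horizontal, log axis) for the 152 loci seen in all libraries, one point per locus. The 10 loci called higher and 13 called lower lie among 129 that were not called, and the highest loci, near 200, are not called.

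The largest called rises among these 152 loci lay beside no annotated gene that was called. A locus of 287 bp on chromosome 2 (chr2:8980455-8980741) was at 2.19, 2.75 and 3.67 in WT, against 27.6 and 33.7 in Cebpa-KO. It rose by 3.04 on the log2 scale (SE 0.21, limma adjusted p = 0.00442), a ratio of means of 10.7, with no overlap between the groups and its nearest annotated gene 65193 bp away. A second locus nearby (chr2:8951594-8952443) had 0, 1.74 and 0 in WT, against 9.15 and 10.4 in Cebpa-KO (log2 difference 2.94, SE 0.50, limma adjusted p = 0.0215). Both loci of this gene-poor place were called higher, although the second was assembled in 1 WT library only. A long locus on chromosome 8 (chr8:129245167-129257598, 12432 bp) was at 3.71, 3.70 and 5.24 in WT, against 35.1 and 35.3 in Cebpa-KO, 8.36 times higher (log2 difference 2.81, SE 0.17, limma adjusted p = 0.00353). Its assembled borders varied so much that only 2% of its length was shared by all libraries that held it. Its nearest gene, Gm56862, was 13209 bp away at 5.90, 5.68 and 4.33 in WT, against 4.72 and 6.64 in Cebpa-KO.

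Other rises lay close to genes, and the gene did not always move with them. Between the histone H4 genes H4c17 and H4c18, which code for core histones, a locus (chr13:22001762-22004474) was at 11.7, 9.86 and 4.82 in WT, against 36.4 and 49.0 in Cebpa-KO (log2 difference 2.22, SE 0.37, limma adjusted p = 0.0209; 0.0622 without WT replicate 2). H4c17 rose too, from 1.88, 2.64 and 3.93 to 23.9 and 22.8, and H4c18 from 6.09, 5.45 and 8.65 to 28.2 and 23.3. These are multigene families, whose near-identical copies can share reads. Past the 3' end of Bach2, a transcription factor that restrains effector programs in lymphocytes, a locus at 2433 bp (chr4:32588542-32588798) was at 22.5, 23.7 and 25.6 in WT, against 51.1 and 95.9 in Cebpa-KO (log2 difference 1.51, SE 0.27, limma adjusted p = 0.0240; 0.0683 without WT replicate 1 and 0.0782 without WT replicate 2). Bach2 stood at only 5.15, 3.79 and 2.11 in WT, against 3.58 and 1.72 in Cebpa-KO and was not called, so that this locus was above the gene beside it in every library. In front of Rnase4, a secreted ribonuclease, a locus at 1322 bp (chr14:51326928-51327211) was at 2.45, 1.99 and 2.28 in WT, against 4.13 and 5.83 in Cebpa-KO (log2 difference 0.87, SE 0.19, limma adjusted p = 0.0353; 0.0687 and 0.0991 without WT replicate 1 or 2). Rnase4 went the other way, from 38.6, 33.7 and 38.0 to 13.5 and 17.5. Beyond the 3' end of Fcgr2b, the inhibitory Fc receptor, a locus at 8817 bp (chr1:170774737-170777368) was at 2.43, 3.83 and 1.88 in WT, against 8.26 and 18.5 in Cebpa-KO (1.89, SE 0.39, limma adjusted p = 0.0338; between 0.0526 and 0.0859 without 1 of the WT libraries). Fcgr2b was at 0.881, 0.564 and 2.86 in WT, against 7.04 and 0.753 in Cebpa-KO. No base of this locus was shared by all libraries, so its values do not all come from the same sequence. The Bach2 and Rnase4 loci were named after their values were seen.

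Of the 19 rises, 5 had a library at 0 and no gene row. In each, both Cebpa-KO libraries alone met the rule of 2 libraries, and a 0 in WT is a row that was not assembled. Their adjusted p-values rest in part on these zeros and are given as a description. The locus in front of Rnf135 (chr11:80073857-80074328) was at 4.77, 0 and 0 in WT, against 18.5 and 27.0 in Cebpa-KO (log2 difference 3.70, SE 0.86, limma adjusted p = 0.0431; 0.112 and 0.0658 without WT replicate 2 or 3, and 0.0901 with a pseudocount of 0.1). Rnf135 itself was at 29.2, 24.3 and 27.6 in WT, against 22.8 and 25.5 in Cebpa-KO, with no call. Similar values were found at chr3:37301348-37302480 (2.11, 0 and 0 against 7.77 and 6.32), chr13:62442600-62443311 (0, 0 and 2.22 against 8.10 and 5.81) and chr1:171315431-171316943 (2.47, 0 and 2.45 against 9.86 and 22.8). Each of these 3 lost its call with a pseudocount of 0.1 or without 1 of the WT libraries, and the second chromosome 2 locus without WT replicate 1 (limma adjusted p = 0.0578) or with that pseudocount (0.0646).

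**Figure D3:**
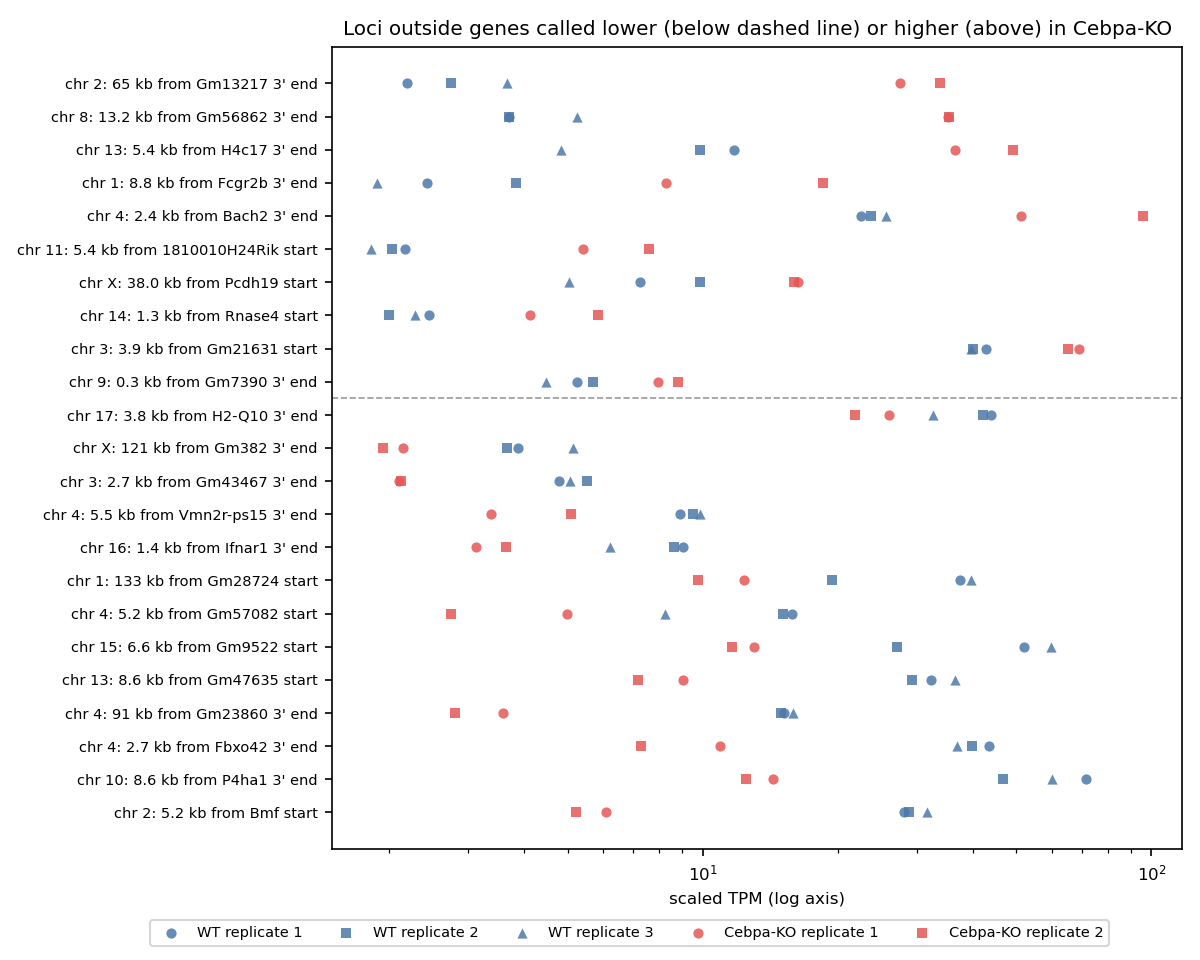
Scaled TPM (horizontal, log axis) in each library of the 23 loci called among the 152, one row per locus, labelled by chromosome and by the distance to the nearest annotated gene and the end of it that faces the locus. WT is blue and Cebpa-KO red, with 1 marker per replicate, and the 3 WT and 2 Cebpa-KO points of a row do not overlap.

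The fall with the smallest p among the 152 lay in front of Bmf, which codes for a BH3-only protein that promotes apoptosis. That locus (chr2:118385391-118388862, 5222 bp from the Bmf start) was at 28.1, 28.9 and 31.7 in WT, against 6.08 and 5.21 in Cebpa-KO. It fell by 2.20 on the log2 scale (SE 0.12, limma adjusted p = 0.00256), 5.23 times between means, and of the 5 fits that left out a library it missed the threshold only without Cebpa-KO replicate 2 (0.0557). Bmf was far lower than this locus, at 1.12, 1.53 and 0.997 in WT, against 0.604 and 0.0914 in Cebpa-KO, and was not called (limma adjusted p = 0.0930). A pair of weaker loci around it was assembled in all 3 WT libraries and in neither Cebpa-KO library: chr2:118389786-118397384, 9617 bp from the Bmf start, at 2.35, 2.24 and 2.54, and chr2:118325272-118325956, 33281 bp past its 3' end, at 3.06, 2.83 and 4.17.

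Other falls lay near the ends of genes. Past the 3' end of P4ha1, a subunit of the collagen prolyl hydroxylase, a locus at 8562 bp (chr10:59217689-59218477) was at 71.3, 46.8 and 59.9 in WT, against 14.3 and 12.5 in Cebpa-KO (log2 difference -2.05, SE 0.19, limma adjusted p = 0.00687). P4ha1 was lower as well, at 61.3, 56.6 and 55.5 against 29.8 and 26.6, so that locus and gene both fell. The gene on the other side, Gm10273 at 13099 bp, was called higher, at 24.6, 22.9 and 23.3 against 38.9 and 37.7. Past the 3' end of Ifnar1, a chain of the type I interferon receptor, a locus at 1444 bp (chr16:91305774-91307663, named after its values were seen) was at 9.03, 8.63 and 6.22 in WT, against 3.12 and 3.64 in Cebpa-KO (-1.02, SE 0.19, limma adjusted p = 0.0276; 0.0666 and 0.0871 without WT replicate 1 or 2). Ifnar1 fell from 129, 131 and 141 to 71.0 and 76.9. Between the 3' end of Fbxo42, a substrate adaptor of a ubiquitin ligase, and the start of Cplane2, which acts in cilium formation, a locus (chr4:140934106-140938199) was at 43.4, 39.7 and 36.9 in WT, against 10.9 and 7.28 in Cebpa-KO (-2.04, SE 0.18, limma adjusted p = 0.00643). Here neither gene was called: Fbxo42 was at 11.9 to 15.0 and Cplane2 at 5.24 to 7.45 over the 5 libraries.

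Other falls had no called gene within 50 kb. The locus chr4:7911750-7912208, 90702 bp from the nearest annotated gene, was at 15.1, 14.9 and 15.9 in WT, against 3.58 and 2.81 in Cebpa-KO (-1.97, SE 0.13, limma adjusted p = 0.00430). The locus chr15:39036575-39037288 was at 52.0, 27.0 and 59.7 in WT, against 13.0 and 11.6 in Cebpa-KO (-1.76, SE 0.35, limma adjusted p = 0.0309; 0.0802 without WT replicate 1). Another fall with a library at 0 was chr12:22916917-22920056, at 8.43, 8.60 and 4.88 against 0 and 1.80 (-2.28, SE 0.50, limma adjusted p = 0.0375). Its limma adjusted p was 0.0957 and 0.109 without WT replicate 1 or 2, and 0.0880 with a pseudocount of 0.1. The WT libraries alone met the rule there, and the 0 in Cebpa-KO is a row that was not assembled. The same holds for chr13:85504826-85508075 below.

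On chromosome 13 loci that were called lower in Cebpa-KO or assembled in WT libraries only lay together. When loci up to 100 kb apart were joined, a grouping chosen after the values were seen, 5 stretches of at least 6 loci were found, and 1 of them held called loci. It spans 194 kb (chr13:85504826-85698447), with 8 loci: 2 called lower and 6 assembled in WT libraries only. Its first locus (chr13:85504826-85508075), 67576 bp from the start of Rasa1, which codes for a GTPase-activating protein of Ras, was at 7.09, 5.73 and 7.37 in WT, against 1.77 and 0 in Cebpa-KO (log2 difference -2.21, SE 0.45, limma adjusted p = 0.0321; 0.0828, 0.0847 and 0.0528 without WT replicate 1, 2 or 3, and 0.0872 with a pseudocount of 0.1). Its highest locus (chr13:85655602-85655929) was at 32.2, 29.3 and 36.5 in WT, against 9.04 and 7.18 in Cebpa-KO (-1.89, SE 0.15, limma adjusted p = 0.00552). The other 6 lay between 1.60 and 3.85 where they were assembled. Summed, the stretch stood at 48.6, 49.1 and 54.7 in WT, against 10.8 and 7.18 in Cebpa-KO. This sum is a description only, since 6 of the 8 loci entered through WT libraries alone and the stretch was chosen after its values were seen. The 2 annotated genes inside it, Gm37641 and Gm47635, did not exceed 0.297 in any library.

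Another place with several loci, also chosen after the values were seen, was the DNA beyond Ctla4, the inhibitory receptor that regulatory T cells carry. No locus there was called. It is the longest run when loci up to 5 kb apart are joined, with 4 loci from 5947 to 14592 bp past the 3' end of the gene. The second of them (chr1:60962896-60963130) was at 9.81, 6.15 and 4.44 in WT, against 0 and 2.02 in Cebpa-KO and did not pass the test (log2 difference -2.11, SE 0.55, limma adjusted p = 0.0574). The other 3 were seen only in WT, at 1.82 to 3.80, and 1 of them was not assembled in WT replicate 3. Being at 0 in Cebpa-KO is part of how these 3 were found. Ctla4 itself fell from 548, 469 and 412 to 259 and 270 (-0.84, SE 0.13, limma adjusted p = 0.0189).

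**Figure D4:**
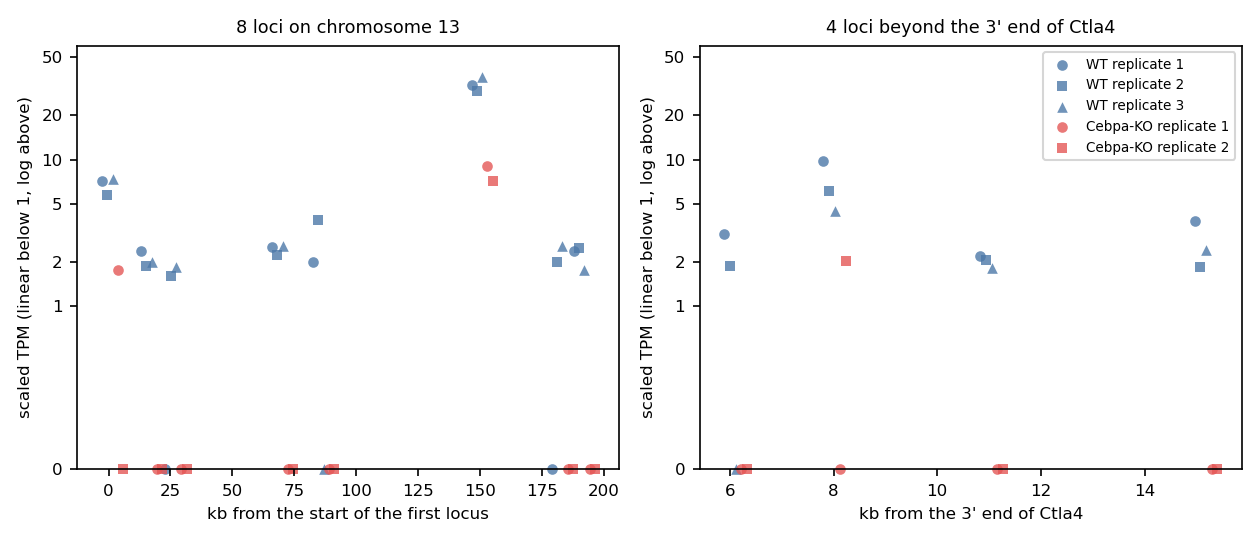
Scaled TPM (vertical axis, linear below 1 and log above) of 8 loci on chromosome 13 by distance from the start of the first (left, kb), and of 4 loci by distance from the 3' end of Ctla4 (right, kb). Points are libraries, spread sideways so that they can be seen, with WT in blue and Cebpa-KO in red. Most Cebpa-KO points lie at 0, where no row was assembled, and for loci assembled in WT libraries only this is part of how they were found.

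The annotated genes beside the 23 called loci were counted by their own calls. Of the 23, 19 had an annotated gene within 50 kb on at least 1 side, 33 genes in all, of which 14 were too low to be tested. Beside the loci called higher, 3 genes were higher, 1 lower and 3 not called. The higher genes H4c17 and H4c18 flank the same locus. Beside those called lower, 3 genes were lower, 1 higher and 8 not called. Among all annotated genes 9.38% were higher and 9.24% lower, and the difference from these few neighbours was not tested. Across the 34 loci of the 152 whose nearest gene lay within 5 kb and was tested, the log2 differences of locus and gene had a Spearman correlation of 0.39 (Pearson 0.30). Across 33 loci with a gene 5 to 50 kb away it was 0.36 (Pearson 0.48). These are descriptions across loci, which share the same 5 libraries and are not replicates.

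**Figure D5:**
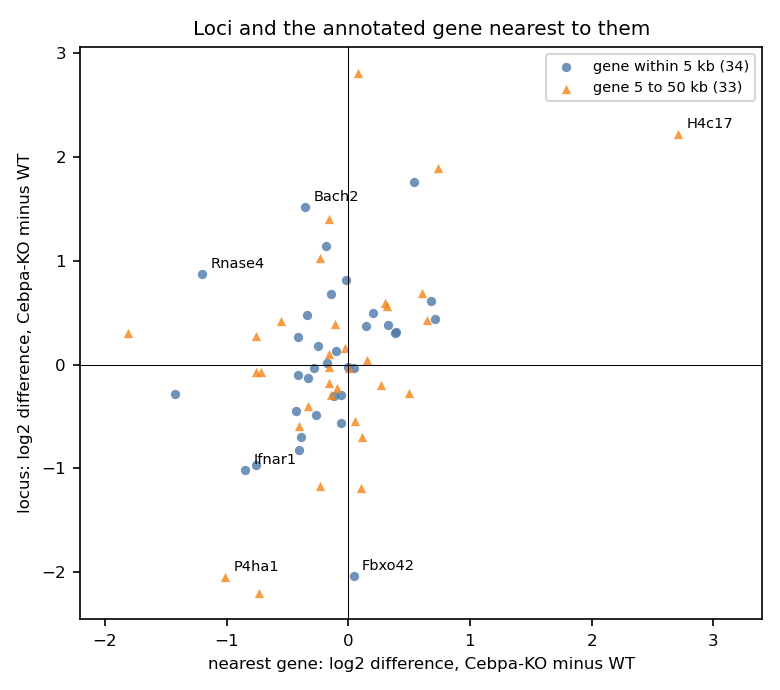
Log2 difference of Cebpa-KO minus WT for a locus (vertical axis) against that of the annotated gene nearest to it (horizontal axis), for 34 loci with the gene within 5 kb (circles) and 33 with the gene 5 to 50 kb away (triangles). Loci near P4ha1, Ifnar1 and H4c17 lie on the side of their gene's change, the one near Rnase4 on the other side, and Bach2 and Fbxo42 were not called.

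Among the 152 loci seen in all 5 libraries with no gene row, the 4 with the highest mean did not pass the test. A 4643 bp locus 3992 bp in front of the start of Dhx40, an RNA helicase gene (chr11:86702565-86707207), was at 203, 197 and 179 in WT, against 237 and 201 in Cebpa-KO (log2 difference 0.18, SE 0.11, limma adjusted p = 0.290). Dhx40 was lower than the locus in every library, at 15.6 to 19.3. A set of 3 short loci came next, with at least 99.6% of their length shared by all libraries. The locus chr17:71270652-71270890 (239 bp) was at 153, 191 and 187 in WT, against 208 and 245 in Cebpa-KO (0.36, SE 0.14, limma adjusted p = 0.127). The locus chr3:5925378-5925831 (454 bp) was at 155, 204 and 179 in WT, against 175 and 202 in Cebpa-KO (0.07, SE 0.14). The locus chr11:108902472-108902948 (477 bp) was at 109, 192 and 157 in WT, against 168 and 149 in Cebpa-KO (0.09, SE 0.25). The annotated genes nearest to these 3 were at 0.0129 or less. How reads with several equally good places in the genome were assigned is not stated in those sources either, and copies of one sequence cannot be told apart.

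In some loci a row that overlaps a gene enters the sum, and the sum can then differ from the rows outside genes. A gene-overlapping row was in the sum of 83 of the 814 loci and 7 of the 37 calls, and 2 of those 7 were also called from the rows outside genes alone. The clearest case is the T cell receptor beta locus next to Trbv21 (chr6:41173106-41179029), whose sum was 5637, 3029 and 2874 in WT, against 2452 and 2406 in Cebpa-KO, while its rows outside genes were at 99.5, 122 and 73.3 and at 154 and 107. The alpha locus next to Trav9-4 (chr14:53909769-53910924) reached 3429 in Cebpa-KO replicate 2, against at most 7.84 from rows outside genes in any library. The locus in front of Gstp3 (chr19:4110039-4116369) was called higher (93.2, 81.9 and 72.0 against 231 and 187, log2 difference 1.33, SE 0.15, limma adjusted p = 0.00886), yet its rows outside genes were at 116 and 97.0 in Cebpa-KO and not called (limma adjusted p = 0.133). Gstp3 itself was lower, at 188, 177 and 157 against 124 and 123. The locus in front of Hrh2, a histamine receptor gene (chr13:54343980-54344507), was called lower at 14.6, 16.6 and 17.1 against 2.06 and 2.17, but its rows outside genes in WT were at 3.42, 2.77 and 3.97 and not called (limma adjusted p = 0.117). At chr1:40092142-40092950, 20288 bp from the start of the decoy receptor gene Il1r2, the sum rose from 2.11, 3.42 and 0 to 25.4 and 28.0, but the row in Cebpa-KO replicate 1 overlapped a gene. At chr12:24263441-24266123 the fall remained, at 11.6, 13.3 and 11.1 against 3.10 and 3.95 from rows outside genes (limma adjusted p = 0.00716). Next to Sf3b1, which codes for a splicing factor, the sum (chr1:55066743-55067397) was 2.25, 4.48 and 268 in WT, against 233 and 233 in Cebpa-KO, since rows in the last 3 libraries ran into the gene. Rows at chr6:129179866-129181618 (157 to 212 in 4 libraries and 1.85 in Cebpa-KO replicate 1), chr17:35752052-35757427 (192 in WT replicate 1, 128 and 107 in Cebpa-KO) and chr1:160631163-160635791 (77.9 in WT replicate 2) overlapped genes in the same way.

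Loci assembled in 1 group only are described without a test, because being listed at 0 in the other group is part of how they were found. Among the 145 in WT only, a 210 bp locus 312 bp past the 3' end of Pnp2, a purine nucleoside phosphorylase (chr14:51202519-51202728), was at 28.5, 26.1 and 23.8 in WT, against 0 in both Cebpa-KO libraries. Pnp2 did not drop with it, at 16.2, 14.4 and 12.3 in WT, against 19.6 and 20.1 in Cebpa-KO. The highest one with no gene-overlapping row in its sum (chr4:132823231-132828854, between Ahdc1 and Wasf2) was at 0, 94.4 and 108, so that WT replicate 1 stood with Cebpa-KO. Such a split within a group, with 1 library at 0 and another at 20 or more, was found for 13 of 731 loci with no gene row. Another was chr9:98753230-98753942, at 0, 0 and 106 in WT, against 89.5 and 102 in Cebpa-KO (chosen after its values were seen).

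Among the 121 loci seen only in Cebpa-KO, the highest by the mean of both Cebpa-KO libraries were chr1:164055667-164057049 (27.7 and 27.6), between F5, the gene of coagulation factor V, and the thiamine transporter gene Slc19a2, and chr12:19293856-19294659 (26.3 and 26.5). F5 itself did not exceed 0.109. The chromosome 12 locus opened a run of 3 loci seen only in Cebpa-KO. Others were chr7:7074630-7074978 (25.1 and 16.7) and chr9:14845637-14848334 (20.9 and 14.9 from rows outside genes). Of the 9 loci placed on the Y chromosome, 7 were seen only in Cebpa-KO, the highest at chrY:42994288-42995792 with 33.8 and 15.8. Yet those libraries listed Ddx3y, Kdm5d and Eif2s3y at 0 and held Xist at 11.4 and 10.7. The origin of the RNA at these loci was not tested. Others were chrY:90745677-90746688 (6.27 and 17.5) and a run of 3 loci at chrY:4796092-4798212 (1.98 to 7.98). A locus seen in both groups (chrY:37719837-37720837) was at 2.78, 1.59 and 0 in WT, against 3.19 and 3.15 in Cebpa-KO, and one seen in WT (chrY:39986400-39986847) at 6.77, 0 and 7.60. Of 35 loci on the X chromosome, 10 were seen only in WT and none only in Cebpa-KO, against 145 and 121 of all 814 loci. The other 25 held 1 locus called higher and 2 called lower. Over all 548 compared loci 3.47% were higher and 3.28% lower, against 9.38% and 9.24% of annotated genes. These few X loci were not tested against the rest. No locus lay within 50 kb of Cebpa, Foxp3 or Xist.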

How the data were processed

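RNA-seq was made with SMART-Seq v4 and Nextera XT, per the labels' protocols. StringTie 2.1.3b, STAR 2.7.11b and the build mm39 are given in the submitters' processing notes, with no options stated in the sources used here. Per the file headers, each deposited table gives coverage, a signal per base, FPKM and TPM. The TPM deposited by the authors were treated as a score, since assembled rows and annotated genes both list the same signal. Coverage over FPKM gave the depth. No counts are in these tables, so counting intervals were not used.

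Rows of a library that overlapped a merged interval were summed. Libraries were scaled by median ratios over annotated genes (factors 0.984 to 1.04). The 16254 annotated genes that reached a TPM of 1 in 2 or more libraries and all loci were fitted together on log2(scaled TPM + 1) with limma 3.58.1 (R 4.3.3, intensity trend, Benjamini-Hochberg adjustment, threshold 0.05). This scale understates the change of low loci. Only loci assembled in both groups were called. On simulated data for this comparison with 17068 features, the fit called 50 of 100 features with a log2 change of 1, 82 of 100 with a log2 change of 2 and 11 of 16868 unchanged features. Changes were placed only in features with a mean log2(scaled TPM + 1) above 2, and the noise was normal. The shares of changed features called therefore do not describe weaker loci or loci with a library at 0. P-values measure the spread between pools.

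Neighbours were annotated rows of the same tables. Since few loci have a strand, they were classed by the gene end that faces the locus. Named loci are the 10 largest called rises and 10 largest called falls without overlap between groups and with a mean of 5 or more in the higher group, the 10 highest loci, up to 5 per group among those of 1 group, and those on Y. Members and lists were chosen with earlier results of these data known. Alternatives were other pseudocounts, filters, scaling, merging and fits, and each library left out. Python 3.11.15 with pandas 2.3.3, numpy 2.4.6 and matplotlib 3.10.9 served for tables and plots.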

Additional observations from a re-analysis of the deposited data

How the results depend on the processing

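Over the 548 compared loci (19 higher, 18 lower) and the 152 seen in all libraries (10 and 13), counts moved by over 1.5 times as follows. Rises among the 548 numbered 12 with a pseudocount of 0.1, 59 with array weights and 83 with a replicate block, and 10 from rows at least 5 kb from genes, where the 152 gave 6. With no filter on annotated genes there were 3 higher and 7 lower of the 548, and 3 and 6 of the 152. Called annotated genes, 1524 higher and 1502 lower at first, were 2959 in all with that pseudocount, 4719 with array weights, 1540 with the block and 987 with no filter. With loci alone in the table there were 11 and 10, and 6 and 7. Leaving out 1 library gave 0 to 27 higher and 1 to 19 lower of the 548, and 0 to 17 higher and 0 to 13 lower of the 152. The replicate numbers pair nothing known to be shared, and the correlation of deviations was -0.18 and 0.27 for the 2 same-numbered pairs. Under the block 15 of the 23 calls held. Cebpa lay between -3.54 and -3.27 with 1 library left out, and missed the threshold without Cebpa-KO replicate 1 or 2 (-3.30 and -3.54, limma adjusted p = 0.0528 and 0.0558). The reversed values are of loci that were not called. The locus next to Trbv21 (main -0.59) was 0.42 with rows outside genes only, also when these were of at least 1 TPM, and when merged by strand. The one next to Trav9-4 (main 1.17) was -1.80 with rows outside genes only, -0.064 with the replicate block and -3.77 to 1.97 with 1 library left out. Chromosome 3 at 5925378 was -0.012 with quantile normalization and -0.025 to 0.18 with 1 library left out. Chromosome 11 at 108902472 was -0.13 to 0.28 with 1 library left out. The cause of these shifts was not tested, other than that rows overlapping genes leave the sums. A locus with no assembled row is listed at 0, and whether depth or the assembler sets that limit was not tested.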

Other observations

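Intervals outside genes that were seen in 1 library numbered 120, 105 and 136 in WT replicates 1 to 3 and 169 and 193 in Cebpa-KO replicates 1 and 2, with a median of 1.95 to 2.07 TPM. A few stood far higher: chr3:104659693-104660042 reached 111 TPM in WT replicate 1, and chr4:129474511-129474727 reached 92.2 TPM in Cebpa-KO replicate 2. A stretch of 10 loci on chromosome 9 (chr9:61575675-61741175) summed to 43.8, 33.1 and 35.3 in WT and 48.6 and 49.6 in Cebpa-KO, with none called. On chromosome 12 (chr12:69432878-69602507) 8 loci, none called and 3 seen only in Cebpa-KO, summed to 4.81, 6.97 and 20.6 in WT and 56.8 and 42.5 in Cebpa-KO.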
